A study of Homo sapiens with 2 samples.

Results

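Introns after the first of a gene held 951 mTOR peaks whose centre carried neither a repeat nor a CpG island label. They were taken from the deposited peak list of a chromatin immunoprecipitation and sequencing (ChIP-seq) experiment by their annotation: the class had to be an intron other than intron 1 of the named transcript, and the detailed annotation had to be free of a repeat name and of a CpG label. They made up 4.44% of the 21440 peaks (4.16 to 4.72%, an exact 95% interval after Clopper and Pearson), 11.7% of the 8113 peaks in introns (11.03 to 12.4%) and 18.2% of the 5236 peaks in later introns (17.1 to 19.2%). The remaining later-intron peaks were 4196 with a repeat at their centre and 89 with a CpG label. No measured value entered the choice.

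The study is about PML, mTOR and RONIN acting together in the nucleus on ribosomal genes and senescence in breast cancer. Chromatin of MDA-MB-231, a long-established human cell line of triple-negative breast cancer, kept in medium with 10% serum, was enriched with an antibody to mTOR and sequenced as 1 library. A library of input chromatin from the same line, without a stated genetic change or treatment, served as the reference for calling peaks. Neither library has a replicate, the list carries no read counts, and the depth is unknown. All intervals below therefore cover counting error only, no p-value is given, and peaks and genes are not replicates.

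mTOR is the kinase of complexes that match cell growth to nutrients and growth factors. A fraction of it is found in the nucleus, where it has been described at genes together with DNA-binding partners. Introns are transcribed and then spliced out. They hold enhancers, internal promoters, start sites of other genes and genes for small nucleolar RNAs, and later introns usually lie farther from the promoter of their own gene than the first intron. Human introns are rich in repeats left by transposable elements, and reads from sequence free of repeats are in general easier to place.

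Among the 916 of the 951 peaks on chromosomes searched for promoters, 5 overlapped a RefSeq promoter window, which runs from 250 bases before to 50 after a start site on GRCh38.p14, the assembly of hg38 at a later patch. The sequences of 3 such windows are shown because their 250 upstream bases lay wholly or almost wholly under a peak that the annotation places in a later intron. The window upstream of the uncharacterised gene LOC124904609 (chr19:1507742-1507991, plus strand) lay entirely under a peak in intron 8 of 12 of ADAMTSL5, an extracellular matrix protein gene. The window of AXL, a receptor tyrosine kinase of mesenchymal-like breast cancer cells, (chr19:41226505-41226754, plus strand) had 245 of its bases under a peak in intron 4 of 18 of an AXL transcript with an earlier start. The window of GPR137, an orphan receptor of the lysosomal membrane, (chr11:64270281-64270530, plus strand) lay entirely under a peak in intron 2 of 2 of BAD, a pro-apoptotic member of the BCL2 family. Capitals mark a GC box or an ETS motif on either strand, and all other bases are in lower case.
LOC124904609: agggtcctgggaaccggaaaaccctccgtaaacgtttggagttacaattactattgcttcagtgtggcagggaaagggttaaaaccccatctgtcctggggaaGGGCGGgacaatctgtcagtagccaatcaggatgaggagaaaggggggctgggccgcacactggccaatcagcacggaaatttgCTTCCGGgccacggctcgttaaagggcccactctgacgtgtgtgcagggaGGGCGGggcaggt
AXL: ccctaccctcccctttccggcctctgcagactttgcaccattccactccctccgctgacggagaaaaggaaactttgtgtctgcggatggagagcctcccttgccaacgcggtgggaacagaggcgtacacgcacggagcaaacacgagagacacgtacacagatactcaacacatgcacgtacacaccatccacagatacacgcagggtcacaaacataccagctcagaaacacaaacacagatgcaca
GPR137: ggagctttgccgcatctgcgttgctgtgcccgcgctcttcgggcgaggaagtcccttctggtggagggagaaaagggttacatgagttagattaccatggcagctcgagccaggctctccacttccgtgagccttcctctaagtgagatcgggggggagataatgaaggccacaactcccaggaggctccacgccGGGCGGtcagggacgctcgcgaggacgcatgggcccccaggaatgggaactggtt

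The 3 peaks had scores of 673 in ADAMTSL5, 308 in AXL and 174 in BAD. The deposited distance of the BAD peak was -13508 bp to GPR137, and that of the AXL peak -1214 bp to AXL. The start site of GPR137 in the RefSeq table, which lies under the peak, is therefore not the one the deposited annotation measured from. The motifs searched on both strands were the GC box GGGCGG of SP factors, the ETS motif CCGGAAG, the E-box CACGTG, the AP-1 motif TGANTCA and the string ACTACA, the beginning of the longer site bound by RONIN. The longer RONIN site, whole or with mismatches, was not searched for, so a window without the string may still hold a near match. No pair of the matches shown in capitals overlapped. The LOC124904609 window held 2 GC boxes and 1 ETS motif, the GPR137 window held 1 GC box, and the AXL window held none of the motifs searched. Over the 35116 promoter windows of the table, the 250 upstream bases held a GC box in 42.6%, an ETS motif in 8.52%, an E-box in 6.34%, an AP-1 motif in 6.57% and the RONIN string in 7.28%. GC content was 57.2% in the LOC124904609 window, 54.4% in the AXL window and 61.2% in the GPR137 window, against a median of 58.0% over all windows. The other 2 overlaps were at LOC124906209 inside ITPR1, the calcium release channel of the endoplasmic reticulum, with 106 of the upstream bases under a peak of score 58, and at LOC124902502 inside TCF7L2, a transcription factor of the WNT pathway, where the peak of score 48 reached only bases after the start.

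The peaks with the highest scores lay in genes of many kinds. The deposited score is the authors' own value without a stated scale, and it is used here only to rank peaks within the list. FOXK2, a forkhead transcription factor, held the top peak with a score of 2420 and a width of 1675 bp (chr17:82592311-82593985), in intron 8 of 8. VRK3, of the vaccinia-related kinase family, held the next with 1880 in intron 12 of 12 (chr19:49986779-49988282). A score of 1412 stood in intron 8 of 12 of CELF4, an RNA-binding protein known mainly from neurons (chr18:37269649-37271343). Scores over 1000 were also found in KIAA1755 (1241), in LRRC49 (1151), a subunit of the tubulin polyglutamylase complex, and in DLGAP4 (1048), a postsynaptic scaffold. These were all 6 peaks of the group at or above 1000, and they lay on 5 chromosomes.

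Next in rank came a pair of muscle genes. DYSF, which encodes the membrane repair protein dysferlin, had 980 in intron 17 of 54, and TNNT1, slow skeletal troponin T, had 913 in intron 4 of 12. FAM24A and CSF2RA, the alpha chain of the GM-CSF receptor, tied at 821. ZNF274, a KRAB zinc finger protein known for binding zinc finger gene clusters, followed with 794. LPIN1, the phosphatidate phosphatase lipin 1 and a known substrate of mTORC1, had 729 in intron 2 of 20, with a deposited distance of -2530 bp, so that the assigned start lay downstream of the peak centre. SHANK2, another postsynaptic scaffold, had 699, and DRC4, a subunit of the ciliary nexin-dynein regulatory complex, had 665. The remaining 5 of the top 20 were MAPK9 (595), which encodes the stress kinase JNK2, KCTD2 (568), a cullin-3 adaptor, MATK (544), a kinase that phosphorylates SRC family members, JAKMIP1 (524), and FTO (485), the RNA N6-methyladenosine demethylase. ADAMTSL5, named above, ranked between SHANK2 and DRC4 with 673.

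Most of the group scored far below these. The 951 scores ran from 13 to 2420 with a median of 53 (order-statistic 95% interval 48 to 54), and the middle 50% lay between 32.5 and 91. Only 19 reached 500. First-intron peaks without a repeat had a median score of 48.5, intergenic peaks without a repeat 59, later-intron peaks with a repeat 61 (59 to 61), and all 21440 peaks 61. The top 10% of the whole list began at a score of 200 and, with ties, held 10.0% of all peaks. It held 88 of the 951 peaks, or 9.25% (7.49 to 11.3%), against 7.57% of first-intron, 8.65% of repeat-labelled later-intron and 12.3% of intergenic peaks. The share was close to the background of the list.

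Widths ran from 248 to 3688 bp with a median of 405 bp (388 to 417 bp), against 399 bp in first introns, 378 bp (371 to 384 bp) at repeat-labelled later-intron peaks and 418 bp in intergenic sequence. Widths of at least 1 kb were found in 75 of the 951, or 7.89% (6.25 to 9.79%), and in 4.24% (3.65 to 4.90%) of the repeat-labelled later-intron peaks. The corresponding shares were 7.07% in first introns, 8.36% in intergenic sequence and 6.35% over all peaks, which had a median width of 400 bp. Scores and widths rose together, with a Spearman rank correlation of 0.556 over the 951 peaks of 1 library, given as a description of 1 list. The 6 peaks at or above 1000 had a median width of 1608 bp. The widest peak did not follow this: ARID3A, an AT-rich DNA-binding factor, held 3688 bp (chr19:953452-957139) with a score of only 96. After it came NTM, a neuronal adhesion molecule, with 2667 bp and 343, ZNF578 with 2468 bp and 213, AXL with 2417 bp and 308, and PNPLA7, a lysophospholipase, with 2412 bp and 260.

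**Figure D1:**
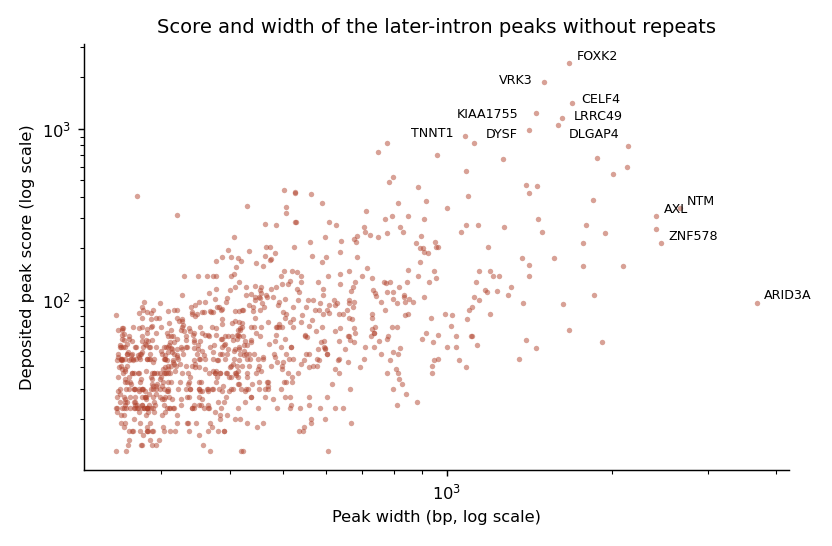
Deposited score against width of each of the 951 later-intron peaks without a repeat, both on log scales, with 1 point per peak and the host genes of the 8 top-scoring and 4 widest peaks named. Scores and widths rose together, while the 3688 bp peak in ARID3A had a score of 96.

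Within transcripts, early introns held the largest shares of the peaks, as they did of the repeat-labelled peaks. Intron 2 held 245 of the 951 peaks (25.8%, 23.01 to 28.7%), against 26.5% (25.2 to 27.9%) of the 4196 repeat-labelled peaks. Intron 3 held 16.2% against 16.5%, intron 4 held 10.5% against 10.4%, and introns 5 to 9 held 23.9% against 24.1%. Introns 10 to 19 held 18.6% (16.2 to 21.2%) against 15.2% (14.1 to 16.4%). From intron 20 onwards the order was the other way, with 5.05% (3.74 to 6.64%) against 7.20% (6.43 to 8.02%), and in both ranges the intervals overlapped narrowly. The last intron of the transcript held 143 peaks, or 15.0% (12.8 to 17.5%), against 12.3% (11.3 to 13.4%). A sole second intron is also a last intron, and among the 795 peaks in transcripts with at least 5 introns the last held 7.55%.

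**Figure D2:**
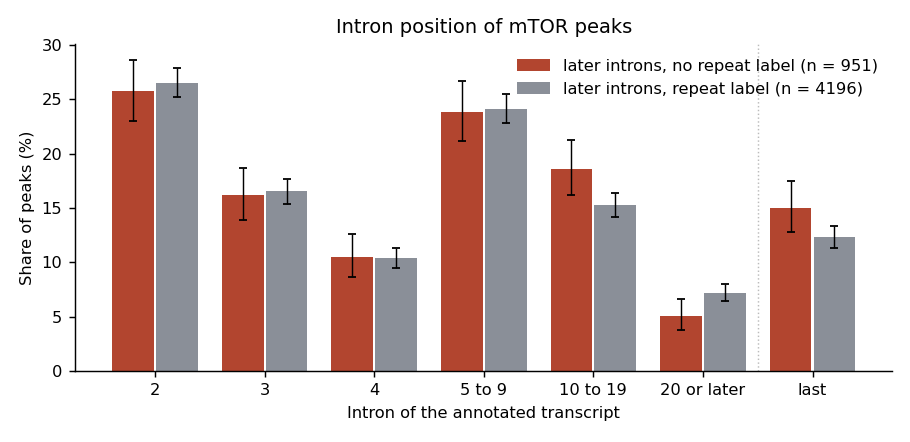
Share of peaks in percent by intron number for later-intron peaks without a repeat (951) and with a repeat (4196). Bars are shares with exact 95% intervals of counting error, and the last intron, set apart at the right, also counts in its own number. Intervals of both groups overlap in every class.

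The median intron number was 4 and the annotated transcripts had a median of 12 introns. On a scale where intron 1 is 0 and the last intron is 1, the median position was 0.455 (0.400 to 0.50), against 0.438 (0.424 to 0.468) for repeat-labelled peaks. Measured in bases along the gene instead, the 722 peaks whose host's strand was known lay a median of 0.625 of the way from start to end (0.591 to 0.652), against 0.561 (0.551 to 0.577) for 3317 repeat-labelled peaks. The highest intron numbers belonged to genes with many exons, several of them for extracellular matrix proteins. Among them were intron 95 of 97 in HMCN2, a hemicentin, intron 80 of 104 in RYR1, the skeletal muscle calcium release channel, intron 77 of 96 in HSPG2, which encodes perlecan, and intron 63 of 63 in FBN3, a fibrillin. Their scores were 138, 248, 127 and 76, all above the group's median.

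Scores did not follow intron number, with a rank correlation of 0.022 over the 951 peaks. Median scores were 51 in intron 2, 50.5 in introns 3 and 4, 54 in introns 5 to 9 and in introns 10 to 19, 53 from intron 20 onwards and 61 (45 to 68) in last introns. Peaks of the top 10% numbered 28 of 245 in intron 2 (11.4%, 7.73 to 16.1%) and 17 of 143 in last introns (11.9%, 7.08 to 18.4%). From intron 20 onwards there was 1 of 48 (2.08%, 0.0527 to 11.1%). The other classes lay between 7.14% in intron 3 and 10.1% in introns 5 to 9. The interval of every class held the 9.25% of the whole group, so no class differed from it beyond counting error.

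By the deposited distance, the centres lay a median of 21818 bp from the nearest start site (19630 to 23614 bp). The middle 50% lay between 8774 and 52536 bp. All 21440 peaks had nearly the same median, 21628 bp (21012 to 22173 bp). First-intron peaks without a repeat lay a median of 4656 bp away (3879 to 5989 bp), intergenic peaks without a repeat 28100 bp and repeat-labelled later-intron peaks 39007 bp (37274 to 40759 bp). Within 5 kb of a start were 16.1% of the later-intron peaks without a repeat (13.8 to 18.6%), against 51.2% in first introns, 5.51% of repeat-labelled later-intron peaks and 12.5% in intergenic sequence. Over 50 kb away were 26.1%, against 8.39%, 41.0% and 33.9% in the same classes. The farthest, at 563382 bp, was in intron 17 of 31 of ADGRB3, an adhesion receptor of neurons. The assigned start lay upstream of the peak, in the direction of that gene's transcription, for 676 peaks (71.1%). Score and distance showed a rank correlation of 0.013.

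**Figure D3:**
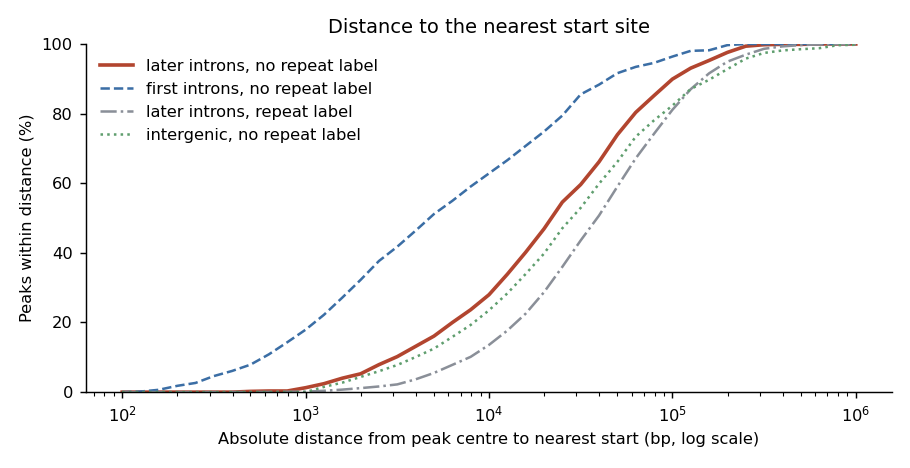
Cumulative share of peaks in percent against the absolute distance from the peak centre to the nearest start site in bp, on a log scale, with 1 line for each of 4 classes. The line for later introns without a repeat runs between that for first introns and that for later introns with a repeat, and 16.1% of its peaks lie within 5 kb.

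By the deposited distance, 12 of the 951 peaks (1.26%, 0.654 to 2.19%) lay within 1 kb of a start. The share was 17.9% in first introns, 0.143% among repeat-labelled later-intron peaks and 16.8% over all 21440 peaks. None of the 1400 intergenic peaks lay so close. The smallest deposited distance was 1010 bp in intergenic sequence and 489 bp in the group, against 0 bp over all peaks. Peaks closest to a start by this distance thus carry other labels, and the low shares follow at least in part from the annotation that defines the classes. Other RefSeq starts can lie closer, such as that of GPR137 under the BAD peak, and are not counted here. L1CAM, a neural cell adhesion molecule also made by carcinoma cells, had the top score of the 12, with 454 at 499 bp in intron 2 of 28. DNAAF3, a factor for assembly of ciliary dynein arms, had 196 at 489 bp, and AZU1, a neutrophil granule protein, had 91 at 951 bp. The other 9 scored 49 or less. Among them were a peak next to PRR20C (49), CYC1 (29), which encodes cytochrome c1 of respiratory complex III, FKBP6P1 (27), NSUN5 (26), a methyltransferase of the large ribosomal RNA, ARHGAP21 (23), a GTPase-activating protein, C1QTNF8 (23) and the noncoding genes ITGB2-AS1 (23) and LINC01276 (23). All 12 lay after the start they were assigned to, and whether the labels alone give this was not tested.

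Neighbouring peaks were frequent. Another peak of any class lay within 10 kb of 422 of the 951 peaks (44.4%, 41.2 to 47.6%), against 45.7% of first-intron, 43.8% of intergenic and 25.9% (24.6 to 27.3%) of repeat-labelled later-intron peaks. Over all 21440 peaks the share was 32.5% (31.8 to 33.1%). Among the 951 themselves, 181 stood in 81 groups of at least 2 with gaps of 10 kb or less, and 14 groups had at least 3. GYS1, muscle glycogen synthase, held 3 peaks over 7764 bp with scores of 231, 158 and 27, and FSD1 held 3 peaks over 3859 bp, all in its intron 10 of 12, with scores of 146, 62 and 54. The neighbouring genes PLIN4 and PLIN5, which encode lipid droplet coat proteins, shared 3 peaks over 12918 bp.

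Host genes could be named for 940 of the 951 peaks by the transcript in the annotation, and there were 752 of them. Protein-coding genes numbered 675 and long noncoding RNA genes 65. The 675 are 3.38% of the 19970 protein-coding genes of the table. Of the 752 hosts, 616 had 1 peak and 136 had 2 or more, which held 324 peaks together. Host spans had a median of 89.6 kb (79.5 to 102 kb), against 70.9 kb for hosts of first-intron peaks, 155 kb (148 to 160 kb) for hosts of repeat-labelled later-intron peaks and 24.2 kb for all protein-coding genes. The share of coding genes that were hosts was 0.958% under 20 kb, 3.47% from 20 to 50 kb, 4.40% from 50 to 100 kb, 7.26% from 100 to 200 kb and 11.1% (9.50 to 12.9%) from 200 kb upwards.

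Several hosts held 4 or more peaks. BCAR3, an adaptor protein first known for antiestrogen resistance of breast cancer cells, had 5 peaks with scores of 119, 111, 104, 41 and 24 in introns 2 and 3. ANKRD24 also had 5, with scores of 106, 64, 62, 48 and 24 over introns 2 to 11 of 21. Its span is short, which gave it 11.9 peaks per 100 kb against 1.75 in BCAR3.

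In 7 genes there were 4 peaks each. In ZMIZ1, a coactivator of the PIAS-like family, the scores were 173, 120, 111 and 23. Scores ran from 54 to 699 in SHANK2, from 17 to 275 in KDM4B, a histone H3 lysine demethylase, from 37 to 158 in PTPRS, a receptor tyrosine phosphatase, from 24 to 72 in NFIC, a nuclear factor I protein, from 27 to 57 in PRKCH, a protein kinase C, and from 20 to 52 in PLEC, which encodes the cytolinker plectin. The 10 hosts with most peaks held 49 of the 940, so most peaks stood in a gene of their own.

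The gene nearest by start site was the host itself for 542 of the 940 peaks (57.7%, 54.4 to 60.8%), against 86.6% of first-intron and 58.8% of repeat-labelled later-intron peaks. By intron number this share was 72.2% in intron 2, 64.9% in intron 3, 39.0% in introns 10 to 19 and 16.7% from intron 20 onwards. Of the 398 peaks nearer to another gene, 193 were assigned to a protein-coding gene, 189 to a noncoding RNA and 14 to a small nucleolar RNA, the guides of ribosomal RNA modification that many introns carry. Of 395 such peaks with both genes in the table, the other gene lay inside the host's span for 175 (44.3%). The peak centre itself lay inside that gene for 16 (4.05%). The small nucleolar RNA cases included ADGRE3 (score 191, SNORA104), DIPK1B (137, SNORA17B), 3 peaks of SIPA1L3 (SNORD152) and a pair in TMEM184B (SNORA92). Of the top 20 peaks, FOXK2 was assigned by distance to WDR45B at 55296 bp and VRK3 to SIGLEC16 at 17866 bp, so the deposited nearest gene of these peaks is not their host.

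Host genes also had other peaks more often than the rest of the coding genes. A peak other than those described here was centred within 1 kb of the start of 14.9% of all coding genes. Among hosts it was 160 of 675 (23.7%, 20.5 to 27.1%), against 2825 of the 19295 other genes (14.6%, 14.1 to 15.1%). The difference held in each span class by the point values, from 27.9% against 12.9% under 20 kb to 13.5% against 10.9% from 200 kb upwards. The intervals overlapped from 200 kb upwards (8.59 to 19.96% and 9.20 to 12.7%) and from 50 to 100 kb (15.1 to 30.04% and 15.6 to 18.5%). Without chromosome 19 the shares were 20.4% and 13.9%. The top start-site peaks among hosts were at TJP3, a tight junction scaffold (1011), ARID3A (638) and ZNF114 (532), 3 genes of chromosome 19, and TJP3 was chosen for mention after its value was seen.

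A first-intron peak without a repeat was found in 75 of the 675 hosts (11.1%, 8.84 to 13.7%) and in 1.89% of other coding genes. A repeat-labelled later-intron peak was found in 293 hosts (43.4%, 39.6 to 47.2%) and in 10.4% of other coding genes. Every host has a later intron, while the other coding genes were not limited to such genes, and the effect of this on the shares was not tested. Between 100 and 200 kb the shares with a repeat-labelled peak were 54.2% of hosts and 29.8% of other genes, and from 200 kb upwards they were 76.8% and 46.1%. For first-intron peaks the shares were 19.01% and 3.25% between 100 and 200 kb. Under 20 kb they were 1.16%, or 1 of 86 hosts, and 0.967%, which do not differ beyond counting error.

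Genes of the mTOR pathway and of its nuclear partners gave 1 host. Of 61 mTOR pathway genes, RPTOR alone was a host (1.64%, 0.0415 to 8.80%), against 4.23% of all coding genes of the same span classes. RPTOR encodes raptor, the substrate-binding subunit of mTORC1, and its peak had a score of 39 in intron 2 of 33, 89692 bp from the start (chr17:80634219-80634841). None of 21 genes of RONIN, HCF-1 and their partners was a host (upper limit 16.1%), none of 78 cytosolic ribosomal protein genes (upper limit 4.62%) and none of 40 senescence and p53 arrest genes (upper limit 8.81%). These zeros depend on how a host is defined: with the deposited nearest gene as host, 4 ribosomal protein genes and 1 senescence gene were counted, while the RONIN list stayed at 0 and the mTOR list at 1. Under that second definition, 570 of the 19970 coding genes were hosts in all. The ribosomal protein genes are short, with a median span of 4.91 kb, and by the annotated transcript 1.05% of all coding genes of such spans were hosts. With the annotated transcript as host, the counts of 0 and 1 do not differ from the background beyond counting error.

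Other lists had more hosts. Of 41 nuclear receptor and TGF-beta pathway genes 10 were hosts (24.4%, 12.4 to 40.3%), against 6.35% of coding genes of the same spans. These hosts held 22 peaks in all, spread very unevenly among them. They included THRA (283), the thyroid hormone receptor alpha, and SMAD6 (250), an inhibitory SMAD. THRB (231), TGFBR3 (95), TGFBR2 (82), RXRA (69), RARB (45), ESR1 (30) and NR3C1 (25) were hosts too. Of 47 receptor tyrosine kinases 8 were hosts (17.0%, 7.65 to 30.8%, against 5.98%). AXL had 2 peaks of 308 and 156, ALK had 2 of 188 and 147, and EGFR had 1 of 118. Among 29 basal and mesenchymal breast markers, 4 were hosts (13.8%, 3.89 to 31.7%, against 3.87%), among them AXL, EGFR and the laminin receptor subunit ITGB4 (47). Among 30 luminal markers, 2 were hosts (6.67%, 0.818 to 22.1%, against 2.93%), ESR1 and GRHL2 (17), a grainyhead factor.

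Muscle genes numbered 6 hosts of 39 (15.4%, 5.86 to 30.5%, against 4.77%). In the top 10% were 4 of their 6 peaks, against 84 of the 849 peaks in all coding hosts and 9.25% of the 951. With 6 peaks in a list chosen with earlier results known, this count is a description only. The 4 were DYSF and TNNT1 with the scores given above, CACNA1C (406), the L-type calcium channel of heart, and RYR1 (248). Of 54 collagens and integrins 7 were hosts (12.96%, 5.37 to 24.9%, against 6.38%), with COL6A2 (78), COL27A1 (69) and COL24A1 (62) on top. Of 57 neuronal synaptic genes 6 were hosts (10.5%, against 8.46%), with SHANK2, the AMPA receptor subunit GRIA1 (141) and the neurexin NRXN2 (75) on top. The lower bounds of the nuclear receptor, kinase, muscle and basal lists lay above the same-span values, in the basal list by little. AXL and EGFR stand in both the kinase and the basal list, and no list was tested. In all, 17 lists were looked at without adjustment for their number, and they were chosen with earlier results of these data known. The bounds therefore describe this peak list and do not show that any list is enriched.

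The remaining lists lay near their same-span values. They were 3 of 34 large fragile-site genes (8.82% against 11.1%), with CDH13 (69), PDE4D (53) and MAGI2 (29), and 3 of 63 histone-modifying enzymes (4.76% against 5.44%), with KDM4B (275), HDAC4 (61) and KDM2B (19). Of 48 autophagy and lysosome genes, 2 were hosts (4.17% against 3.74%), the autophagy receptor SQSTM1 (87) and the protease cathepsin D, CTSD (32). Of 34 AP-1 and Hippo factors, FOSL2 (19) alone was a host (2.94%, 0.0744 to 15.3%, against 4.03%). Genes named ZNF with a number were hosts in 13 of 517 (2.51%, 1.35 to 4.26%, against 2.92%), led by ZNF274, ZNF114 (367) and ZNF578, and 6 of the 13 lay on chromosome 19.

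**Figure D4:**
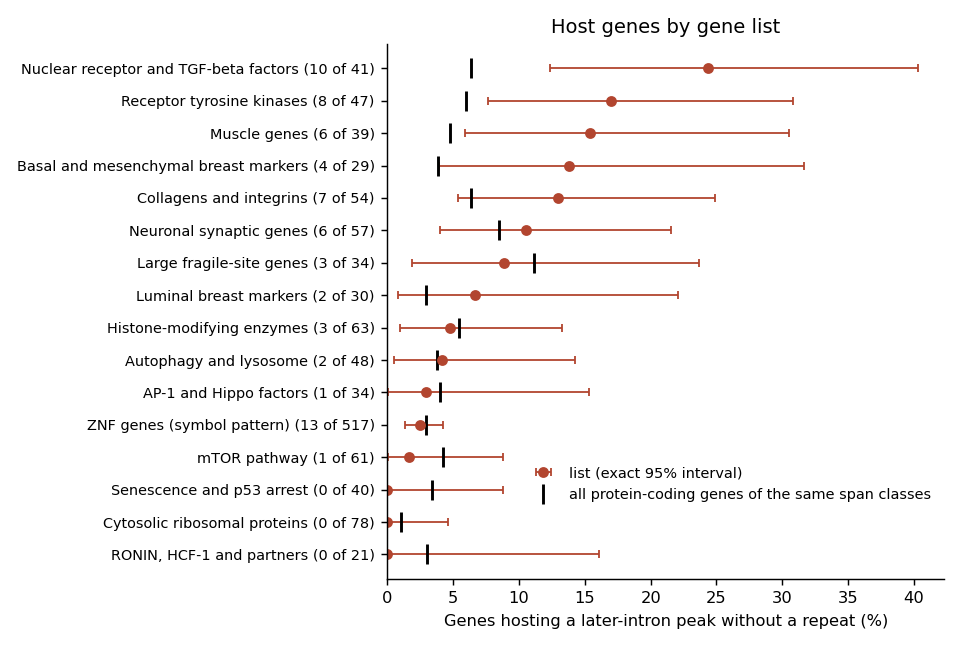
Percent of each list's protein-coding genes that host a later-intron peak without a repeat, as points with exact 95% intervals of counting error, beside the share of all protein-coding genes of the same span classes, as black ticks. The nuclear receptor and TGF-beta list is at the top with 10 of 41 genes, and the RONIN, ribosomal protein and senescence lists are at 0.

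Chromosome 19 held 171 of the 951 peaks (18.0%, 15.6 to 20.6%), against 15.5% of first-intron, 6.01% of repeat-labelled later-intron, 8.29% of intergenic and 8.59% of all peaks. Among all later-intron peaks of chromosome 19, 38.7 in 100 were free of both a repeat and a CpG label (34.1 to 43.4), and the median over the 23 chromosomes was 16.4. The next were chromosome 17 with 28.7, chromosome 20 with 25.9 and chromosome 16 with 25.5, and chromosome 4 was lowest with 7.84. Counted by genes, 120 of the 1451 coding genes of chromosome 19 were hosts, or 8.27 per 100 (6.90 to 9.81), against a median of 2.93 over chromosomes. Chromosome 10 followed with 5.45 and chromosome 20 with 5.21, and X was lowest with 0.590. The median score on chromosome 19 was 62. X had only 6 peaks, and their median score was 242.

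**Figure D5:**
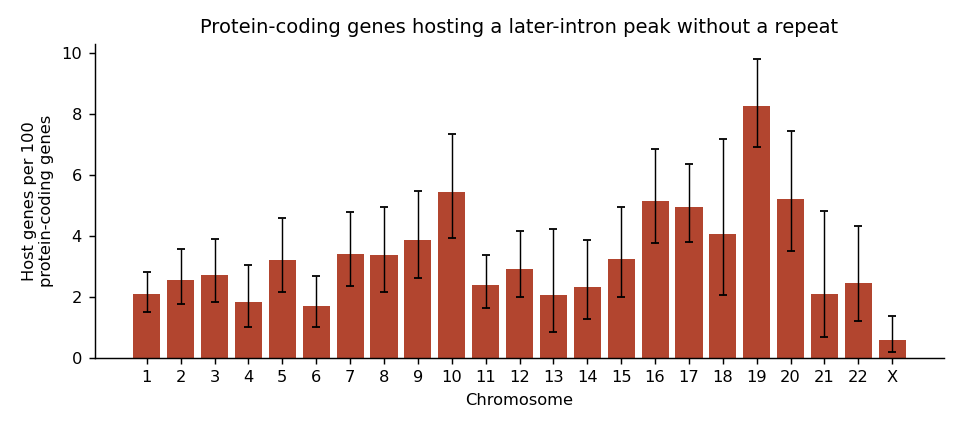
Protein-coding genes that host a later-intron peak without a repeat, per 100 protein-coding genes of each chromosome, with exact 95% intervals of counting error. Chromosome 19 is highest at 8.27 and X lowest at 0.590.

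A larger share of these peaks than of all peaks lay near chromosome ends. Within 5 Mb of the outermost start site of their chromosome lay 224 of the 916 peaks outside chromosome 8 (24.5%, 21.7 to 27.4%), against 20.5% of first-intron, 10.1% (9.23 to 11.1%) of repeat-labelled later-intron, 18.9% of intergenic and 13.4% of all peaks. The distance to chromosome ends was not measured on chromosome 8, whose peaks are left out in every class.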

How the data were processed

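One table of annotated peaks of the mTOR ChIP library was used, and no file of the input library. Libraries were read as paired ends of 150 bp, per the labels' protocols. Per the submitters' processing notes, HOMER 4.11.1, MACS2 2.1.1.20160309, Picard 2.0.1, BWA 0.7.12 and Trimmomatic 0.36 were among the tools and hg38 was the build, and no settings are stated there. How duplicate reads, reads with several placements and the peak threshold were set is thus not given in the sources used, and each could change which peaks stand over repeats. The authors deposited the peak score as whole numbers of unknown scale. Positions, distances and annotations are used as deposited.

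A host is the gene of the annotated transcript in a RefSeq gene table on GRCh38.p14 whose span holds the peak centre. Of the 951 peaks, 11 had none, because 5 accessions were not matched and 6 belonged to a gene elsewhere. Intron totals follow the transcript named, and they differ between transcripts of a gene. Promoter windows, chromosome ends and strand were not analysed here for chromosome 8. Start peaks are peaks other than the 951 with a deposited distance of at most 1 kb to the gene. Shares have exact Clopper-Pearson 95% intervals and medians order-statistic intervals. The same-span share of a list weights all coding genes by the list's number of genes in 5 span classes. Neither these genes nor the other coding genes set against hosts were limited to genes with a later intron.

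The genes named are the hosts of the 20 top-scoring, 5 widest and 5 highest-numbered introns' peaks, the 10 hosts with most peaks, all hosts of the mTOR and RONIN lists, up to 3 top hosts of every other list and the hosts of the 10 top peaks within 1 kb of a start; further list members and the examples of neighbouring groups, small nucleolar RNAs, ADGRB3 and start-site peaks were chosen after their values were seen. Some of the genes and a list that these rules give are not reported here. The peaks and the lists were chosen with earlier results of these data known. The reading of intron numbers, the classes and the intervals of medians were tested on simulated data. Computation was in Python 3.11.15 (scipy 1.17.1, numpy 2.4.6, pandas 2.3.3), and plots were drawn with matplotlib 3.10.9.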

Additional observations from a re-analysis of the deposited data

How the results depend on the processing

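Of 43 values recomputed under the alternatives, 30 stayed within the 95% interval of the value reported (for counts, within 1.5 times) and 13 did not. Among the 10724 peaks in the upper 50% by score, from 61 upwards, later-intron peaks without a repeat were 3.76% of all (403 peaks), 18.4% of them lay in last introns, the median width was 541 bp, 16.4% were at least 1 kb wide, and 328 coding genes were hosts. In transcripts with at least 5 introns, intron 2 held 19.7%, the last intron 7.55%, and the median relative position was 0.385. Without chromosome 19, 780 peaks remained, their median distance was 26192 bp, 29.4% lay over 50 kb from a start, and, in an alternative added after seeing the data, 20.4% of hosts had a peak at the start site. The top 25% by score held 20.7% of the peaks, and 5.26% lay within 2 kb of a start. Of 51 recounts of the lists, 35 stayed within 1.5 times and 16 did not, of which 7 came from taking the deposited nearest gene as host and 9 from the upper 50% by score. No paired analysis was possible because there is 1 ChIP library. With no replicate and unknown depth, none of the counts can be set against the spread between experiments, and a gene without a peak may lie below the detection limit.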
